A study of Mus musculus with 21 samples.

Results

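Integrin and laminin subunit genes were followed across 21 mouse mammary tumours. The members were all genes of the count table whose symbol begins with Itga, or is Itgb or one of Lama, Lamb and Lamc followed by a subunit number. This gave 37 of the 24028 genes listed, namely 18 integrin alpha subunits, 8 integrin beta subunits and 11 laminin chains. Of the integrins, 5 were set apart as epithelial (Itga2, Itga3, Itga6, Itgb4 and Itgb6), 8 as leukocyte integrins (Itga4, Itgad, Itgae, Itgal, Itgam, Itgax, Itgb2 and Itgb7) and 13 as broad, stromal or platelet integrins. Of the laminins, Lama3 and Lamb3 are described as chains of the epithelial laminin of hemidesmosomes and 8 as other chains. All 37 passed the filter on low counts.

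Every tumour had the genotype WAP-Cre/PIK3CA-H1047R, so the controls carried the oncogene too: Cre recombinase driven by the whey acidic protein promoter, which is active in mammary alveolar cells, turns on a mutant PI3K catalytic subunit. In the groups given BYL719 (alpelisib, a PI3K-alpha inhibitor), 7 tumours were labelled relapse and 7 stable, while 7 vehicle tumours came from animals given DMSO. The series' design text calls the treated groups responding and stable, and how responding relates to relapse is not stated; ages and times of collection are not given. The sample titles also carry a code of unstated meaning, which took 7 values among relapse, 4 among stable and 3 among vehicle tumours, with 2 values shared by relapse and stable tumours. P-values therefore rest on the variation from tumour to tumour, and some tumours may share an animal. A digit and the letter L or R follow the code in each title, and their meaning is not stated either.

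Integrins are surface receptors made of an alpha and a beta subunit, through which cells hold on to matrix or to other cells and signal from these contacts. Laminins are trimers of an alpha, a beta and a gamma chain and form the sheet of the basement membrane under epithelia, around muscle fibres and around vessels. In mammary gland, integrin alpha-6 beta-4 anchors basal cells to the epithelial laminin at hemidesmosomes, beta-1 integrins are the general matrix receptors of epithelium and stroma, and beta-2 and beta-7 integrins are used by leukocytes.

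A window of 250 bases is printed for each of Itgav, Itga4 and Itgam, to show promoter-table sequence of the subunit called in both treated groups, of the leukocyte subunit called in stable tumours, and of a myeloid subunit that was not called. The windows end at the base before the gene's annotated start for Itga4 and Itgam, while that of Itgav lies inside the annotated gene span given with its values. They are from RefSeq (GRCm38.p6, + strand, 5′ to 3′), at chr2:83724147-83724396 (Itgav), chr2:79255176-79255425 (Itga4), chr7:128062390-128062639 (Itgam), and capitals mark GAGGAAG or its reverse complement CTTCCTC, a motif with the GGAA core of ETS factors such as PU.1.
Itgav: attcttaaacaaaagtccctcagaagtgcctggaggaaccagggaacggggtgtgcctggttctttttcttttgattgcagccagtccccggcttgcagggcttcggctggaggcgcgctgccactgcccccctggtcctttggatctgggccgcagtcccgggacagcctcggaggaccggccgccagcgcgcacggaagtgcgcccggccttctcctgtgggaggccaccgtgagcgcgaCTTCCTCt
Itga4: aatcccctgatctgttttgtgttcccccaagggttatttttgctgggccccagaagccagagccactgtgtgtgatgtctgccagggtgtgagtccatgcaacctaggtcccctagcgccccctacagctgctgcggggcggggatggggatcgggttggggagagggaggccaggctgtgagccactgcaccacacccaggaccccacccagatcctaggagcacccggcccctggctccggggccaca
Itgam: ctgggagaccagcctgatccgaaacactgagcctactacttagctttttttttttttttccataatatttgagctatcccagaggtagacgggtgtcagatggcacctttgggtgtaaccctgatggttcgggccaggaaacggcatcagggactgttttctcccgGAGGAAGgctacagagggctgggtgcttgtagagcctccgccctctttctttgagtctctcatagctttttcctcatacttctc
The motif was found once in Itgav and once in Itgam and not in Itga4. On either strand it was in 10.6% of 32851 windows of this length, and in 7 of the 26 windows (26.9%) of the 23 members matched, those of Itga11, Itga2b, Itgam, Itgav, Itgb6, Lama2 and Lamb3. A match describes letters only.

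Total counts were 17722622 to 21431465 in relapse, 13337848 to 24648463 in stable and 21043399 to 24873844 in vehicle tumours. Vehicle 2, 6 and 7 stood apart from all other tumours. On the leading principal component of the 1000 most variable genes (45.9% of their variance) their scores were 97.8, 99.0 and 76.7, whereas the nearest score, that of stable 1, was 32.5. The summed level of 6 markers of myoepithelial and smooth muscle cells (Acta2, Myh11, Cnn1, Tagln, Mylk and Oxtr) was 201 to 665 CPM (counts scaled to a common library total) in relapse and 97.9 to 577 CPM in stable tumours, against 17149.9, 22708.5 and 9627 CPM in vehicle 2, 6 and 7 and 135 to 440.4 CPM in the 4 vehicle tumours that remain. Fibroblast markers (7 genes) summed to 8900, 4991 and 3887 CPM in vehicle 2, 6 and 7 and to 964 to 2488 CPM in the other vehicle tumours. Endothelial markers (6 genes) summed to 420, 329 and 177 CPM against 116 to 153 CPM. Treated tumours ranged from 1537 to 8250 CPM in the fibroblast sum and from 98.2 to 290 CPM in the endothelial sum. Luminal epithelial markers were present in every tumour, with sums of 8 genes of 1169 to 2843 CPM in relapse, 1357 to 3978 CPM in stable and 1349.7 to 3125 CPM in vehicle tumours. For this reason the calls against vehicle and the medians over members and lists are given with and without vehicle 2, 6 and 7. In bulk tumour RNA, fewer cells of a type and less RNA per cell cannot be told apart.

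Levels of different genes are compared per length, as CPM per kilobase (kb) of the deposited gene width. Itgb1, the common beta subunit of most matrix integrins, was the most abundant, with a median of 196 CPM per kb over the 21 tumours and a range of 133 to 419.9. Itga6, the alpha subunit of the laminin receptors, followed at a median of 84.9 CPM per kb (39.5 to 229). Itgav, the alpha subunit of the receptors for vitronectin and fibronectin, stood at 37.5, its partner Itgb5 at 34.6, and Lamc1, the usual gamma chain, at 34.1 CPM per kb. These neighbours in the order overlapped in their ranges over tumours, Itgav lying between 26.1 and 105, Itgb5 between 19.98 and 52.9 and Lamc1 between 23.2 and 125 CPM per kb. At the low end were Itga10, a collagen receptor subunit of cartilage, at 0.725, the platelet subunit Itga2b at 0.560, the lymphocyte subunit Itgb7 at 0.541 and the gamma-3 laminin chain Lamc3 at 0.337 CPM per kb. Of the chains of the epithelial laminin, Lamb3 stood at 21.96 and Lama3 at 15.2 CPM per kb, while the basement membrane chains Lama1 and Lama2 stood at 4.10 and 4.37.

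**Figure D1:**
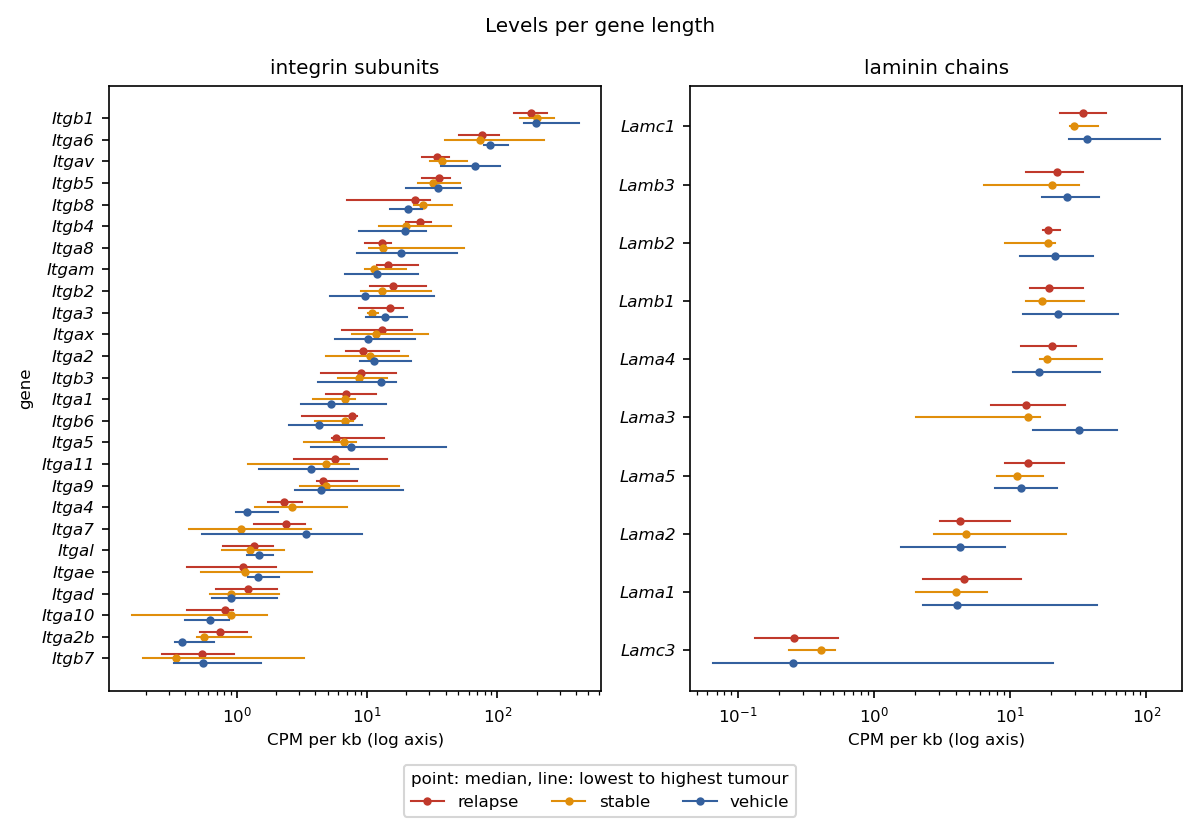
Level per gene length (CPM per kb, log axis) of 26 integrin subunits and 10 laminin chains, in order of the median over 21 tumours. Points are group medians and lines run from the lowest to the highest of 7 tumours; Itgb1 and Itga6 lead, and the vehicle lines of Lamc1 and Lamc3 reach far above those of the treated groups.

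Relapse and stable tumours were each set against vehicle to ask which subunits differ under BYL719. Against vehicle, Itgav, Lama3 and Lamc3 were called as lower in both treated groups, and Itga4 as higher in stable tumours. The median of Lamc3 was not lower, at 1.55 CPM in relapse and 2.46 CPM in stable, against 1.51 CPM in vehicle tumours. Itga4 was at 0.85 in relapse tumours too, without a call, and all 7 of them lay above the vehicle median. The quasi-likelihood test of edgeR called 3 of 37 members between relapse and vehicle, all lower (8.11%, against 11.2% of the 15792 genes tested, 5.42% being higher and 5.8% lower), and 4 of 37 between stable and vehicle, 1 higher and 3 lower (10.8%, against 15.1% of genes, 6.9% higher and 8.16% lower). At an unadjusted p under 0.05 there were 7 of the 37 members in relapse and 11 of the 37 in stable tumours, where 27.5% and 31.1% of genes passed. A member is called at a Benjamini-Hochberg adjusted p under 0.05 over all genes tested. With only 37 members, the shares called were near those of all genes and are not read as a result about the members. The 2 comparisons share the 7 vehicle tumours. In CPM, 0 of 37 members had groups that did not overlap in any comparison, where 3.01% of genes did between relapse and vehicle, 2.87% between stable and vehicle and 0.0823% between relapse and stable. The median log2 fold change of the 37 members was -0.12 in relapse and -0.16 in stable tumours, against -0.02 and -0.005 over all genes. Without vehicle 2, 6 and 7 the calls were 0 of 37 in relapse (3.28% of genes) and 1 of 37 in stable tumours (5.27% of genes), and the members' medians were 0.16 and 0.13, against 0.02 and 0.05 over all genes.

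Itgav (Entrez gene 16410, chromosome 2, 83722303 to 83806917, GRCm38.p6) lay at 253, 331 and 411 CPM in relapse tumours (lowest, median and highest), at 292, 363 and 562 CPM in stable tumours and at 359, 645 and 1013 CPM in vehicle tumours. All 7 relapse and all 7 stable tumours lay below the vehicle median, although vehicle 4 at 359 CPM and vehicle 1 at 397 CPM fell among the treated tumours. It was 320.3 ± 52.6 CPM in relapse and 671 ± 249 CPM in vehicle tumours (mean ± SD, n = 7 each), a log2 fold change of -1.07 ± 0.21 (SE; adjusted p = 0.00439 in edgeR). In stable tumours, at 385 ± 87.0 CPM, it was -0.80 ± 0.20 (adjusted p = 0.0149). Vehicle 2, 6 and 7 held 1013, 883 and 834 CPM. Without them Itgav was at -0.61 in relapse (adjusted p = 0.0689; 3.48e-05 to 0.0689 over the alternatives) and at -0.34 in stable tumours (adjusted p = 0.282; 0.00341 to 0.282), and neither was called.

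Lamc3 (Entrez gene 23928, chromosome 2, 31887281 to 31949083), a gamma chain found in few tissues, lay at 0.802, 1.55 and 3.24 CPM in relapse, at 1.43, 2.46 and 3.09 CPM in stable and at 0.392, 1.51 and 122 CPM in vehicle tumours. The vehicle values divided into 87.8, 122 and 27.4 CPM in vehicle 2, 6 and 7 and 0.392 to 1.51 CPM in the other 4. Its log2 fold change was -4.30 ± 1.02 in relapse (adjusted p = 0.0113; 1.75 ± 0.825 CPM, against 34.5 ± 50.2 CPM in vehicle tumours) and -3.83 ± 1.00 in stable tumours (adjusted p = 0.0164; 2.42 ± 0.560 CPM). The vehicle median exceeded just 3 relapse tumours and 1 stable tumour. With those 3 vehicle tumours left out the sign turned, to 0.93 in relapse (adjusted p = 0.183) and to 1.41 in stable tumours, which was called as higher (adjusted p = 0.0489). Over the alternatives adjusted p ran from 1.34e-05 to 0.407 in relapse and from 0.000137 to 0.537 in stable tumours.

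Lama3, the alpha chain of the epithelial laminin, lay at 76.0, 137 and 267 CPM in relapse, at 21.6, 144 and 176 CPM in stable and at 155, 336 and 639 CPM in vehicle tumours. All treated tumours lay below the vehicle median, and the 3 highest values of all belonged to vehicle 2, 6 and 7 at 602, 639 and 546 CPM. It fell by 1.26 ± 0.39 on the log2 scale in relapse (164 ± 70.2 CPM, against 391.9 ± 200.2 CPM in vehicle tumours; adjusted p = 0.0418) and by 1.58 ± 0.39 in stable tumours (131 ± 50.8 CPM; adjusted p = 0.0132). Without vehicle 2, 6 and 7 it was at -0.54 (adjusted p = 0.468; 0.0101 to 0.468 over the alternatives) and -0.86 (adjusted p = 0.205; 0.000808 to 0.205). Over the 21 fits that leave out 1 tumour the relapse value ran from -1.42 to -1.11. The call was lost when relapse 1, 3, 5, 6 or 7 was left out (adjusted p 0.0748, 0.0760, 0.0721, 0.0633 and 0.0707), when stable 2, 3 or 6 was (0.0504, 0.0511 and 0.0507), when vehicle 2, 6 or 7 was (0.0791, 0.0848 and 0.0758), and with upper quartile scaling (0.0528).

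Itga4 (Entrez gene 16401, chromosome 2, 79255426 to 79333114), the alpha subunit of the receptors for VCAM1 and MAdCAM on lymphoid and myeloid cells, lay at 19.3, 25.3 and 35.2 CPM in relapse, at 15.4, 29.3 and 78.2 CPM in stable and at 10.9, 13.3 and 22.9 CPM in vehicle tumours. All 14 treated tumours lay above the vehicle median. Stable 5 and 6, at 78.2 and 75.1 CPM, stood well above the other stable tumours, and vehicle 2, 6 and 7, at 13.3, 12.6 and 12.4 CPM, did not stand apart. It rose by 1.45 ± 0.31 in stable tumours (40.7 ± 25.9 CPM, against 14.9 ± 4.14 CPM in vehicle tumours; adjusted p = 0.00558) and was at 0.85 in relapse tumours (26.9 ± 5.69 CPM; adjusted p = 0.0773). Without vehicle 2, 6 and 7 the stable value was 1.31 (adjusted p = 0.062; 0.000112 to 0.0634 over the alternatives). The coding gene Cerkl overlaps Itga4, and the labels do not say how strand was used in counting.

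**Figure D2:**
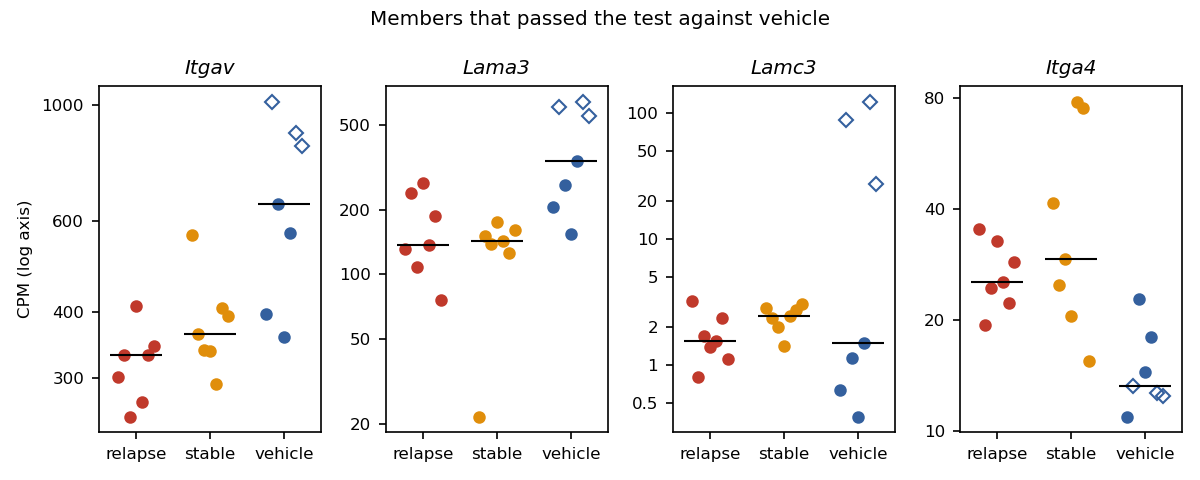
CPM (log axis) of the 4 called members in each of the 7 relapse, 7 stable and 7 vehicle tumours; points are tumours, bars are group medians and open diamonds are vehicle 2, 6 and 7. The diamonds are the highest vehicle values of Itgav, Lama3 and Lamc3 and lie among the other vehicle tumours in Itga4.

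Of the 5 epithelial integrins, 0 were called against vehicle in either treated group, with medians of -0.002 in relapse and 0.005 in stable tumours. With vehicle 2, 6 and 7 left out these were -0.15 and -0.15, again with 0 called. Itga6 lay at 426, 637 and 863 CPM in relapse, at 330, 620 and 1915 CPM in stable and at 658, 731 and 1005 CPM in vehicle tumours. Its groups overlapped throughout, with stable 1 far above all other tumours. Its log2 fold change was -0.32 in relapse (95% interval -0.89 to 0.25; adjusted p = 0.478) and 0.005 in stable tumours (-0.56 to 0.57; adjusted p = 0.993). Itgb4, its hemidesmosomal partner, lay at 157, 201 and 246 CPM in relapse, at 98.1, 156 and 346 CPM in stable and at 69.2, 155 and 226 CPM in vehicle tumours. All 7 relapse tumours were above the vehicle median, and the vehicle tumours with the lowest levels were 2, 6 and 7 at 88.2, 69.2 and 114 CPM. Itgb4 was at 0.48 in relapse (-0.05 to 1.01; adjusted p = 0.227) and 0.37 in stable tumours (-0.16 to 0.90; adjusted p = 0.329), and at 0.14 and 0.03 without those 3 tumours. Galk1 overlaps Itgb4. Itgb6, a beta subunit that pairs with alpha-v in epithelium, was also lowest in vehicle 2, 6 and 7 among the vehicle tumours (15.8, 17.4 and 23.4 CPM, against 26.9 to 57.5 CPM in the other 4), and was at 0.25 in relapse and 0.26 in stable tumours (adjusted p 0.626 and 0.57), and at -0.16 and -0.15 without those 3 tumours. The collagen receptor subunit Itga2 and the laminin receptor subunit Itga3 were at -0.26 and -0.002 in relapse and at -0.22 and -0.34 in stable tumours, with adjusted p from 0.208 to 0.994, and without those 3 tumours at -0.27 and 0.13 in relapse and at -0.23 and -0.20 in stable tumours.

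Of the 8 leukocyte integrins, 0 were called in relapse and 1, Itga4, in stable tumours. Their medians were 0.17 in relapse and 0.22 in stable tumours. Without vehicle 2, 6 and 7, 0 of the 8 were called in either group and the medians were -0.11 and 0.03. Itgam, the alpha subunit of the complement receptor of neutrophils and macrophages, lay at 74.1, 89.8 and 152 CPM in relapse, at 59.9, 71.0 and 123 CPM in stable and at 42.1, 73.8 and 153 CPM in vehicle tumours. The lowest relapse tumour was just above the vehicle median, and vehicle 5 was as high as the highest relapse tumour. Its log2 fold change was 0.39 in relapse (-0.15 to 0.93; adjusted p = 0.343) and 0.25 in stable tumours (-0.29 to 0.79; adjusted p = 0.538), and 0.04 and -0.10 without those 3 tumours. Its partner Itgb2, the beta subunit shared by the leukocyte integrins of this family, lay at 31.0, 46.7 and 83.4 CPM in relapse, at 26.6, 38.6 and 91.8 CPM in stable and at 15.4, 28.2 and 95.7 CPM in vehicle tumours. Vehicle 3 held the highest value and vehicle 6 the lowest, so that the vehicle tumours spanned both treated groups. Itgb2 was at 0.35 (adjusted p = 0.612) in relapse and 0.46 (adjusted p = 0.444) in stable tumours, and at -0.10 and 0.007 without those 3. Itgax, a subunit of dendritic cells and macrophages, was at 0.17 in relapse and 0.39 in stable tumours, and at -0.16 and 0.05 without them. Itgad was at 0.17 and 0.18, and at -0.11 and -0.09 without them. The lymphocyte subunits Itgal, Itgae and Itgb7 were low, at group medians of 0.914 to 7.84 CPM, and their adjusted p ran from 0.51 to 0.986. Itgb7 was at 4.07, 3.50 and 2.40 CPM in vehicle 2, 6 and 7, against 0.871 to 1.47 CPM in the other vehicle tumours. In relapse Itgal, Itgae and Itgb7 were at -0.09, -0.44 and -0.41. Without vehicle 2, 6 and 7 they were at -0.17, -0.20 and 0.36 there, and the sign of Itgae turned in stable tumours.

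General leukocyte markers were measured beside these subunits. The summed level of Ptprc, Cd53, Coro1a, Laptm5 and Lcp1 was 379 to 709.9 CPM in relapse, 419 to 826 CPM in stable and 331.8 to 612 CPM in vehicle tumours, and 0 of the 5 were called against vehicle in either group. The 7 macrophage markers summed to 416 to 903 CPM in relapse, 288 to 754 CPM in stable and 320.01 to 540.3 CPM in vehicle tumours, also with 0 called. The 6 neutrophil markers summed to 43.4 to 222 CPM in relapse, 26.1 to 145 CPM in stable and 8.28 to 414 CPM in vehicle tumours. Vehicle 2, 6 and 7 held 8.28, 10.4 and 19.7 CPM, against 149 to 414 CPM in the other vehicle tumours. Of the 5 tested, 0 were called with or without vehicle 2, 6 and 7. The medians of these 5 were -0.08 in relapse and -0.71 in stable tumours, and -0.78 and -1.41 without those vehicle tumours. The 8 T and NK cell markers summed to 5.57 to 18.1 CPM in relapse, 6.78 to 29.8 CPM in stable and 9.05 to 33.5 CPM in vehicle tumours. This sum was 27.4, 23.1 and 33.5 CPM in vehicle 2, 6 and 7, against 9.05 to 21.4 CPM in the other vehicle tumours. Of the 7 tested, 1 was called as lower in relapse (0 without vehicle 2, 6 and 7) and 0 in stable tumours. None of these markers was at 0 in every tumour. Stable 5, which led Itga4, also held the highest stable values of Itgae (17.2 CPM), Itgb7 (8.77 CPM) and the T and NK sum. The part of immune cell content in these levels was not tested.

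Of the 13 broad, stromal and platelet integrins, 1 was called as lower in each treated group, Itgav. Itgb1 lay at 570.4, 779 and 1028 CPM in relapse, at 633, 861 and 1165 CPM in stable and at 685, 838 and 1795 CPM in vehicle tumours. The 4 vehicle tumours other than 2, 6 and 7 (685 to 838 CPM) lay inside the treated range. It was at -0.43 in relapse (-0.88 to 0.02; adjusted p = 0.207) and -0.35 in stable tumours (-0.80 to 0.11; adjusted p = 0.286), and at 0.13 and 0.21 without those 3 tumours. Itga2b, the platelet alpha subunit, lay at 3.55, 5.03 and 8.20 CPM in relapse, at 3.38, 3.83 and 8.72 CPM in stable and at 2.26, 2.61 and 4.53 CPM in vehicle tumours. All 14 treated tumours lay above the vehicle median, yet the groups overlapped. It was at 0.74 in relapse (0.19 to 1.29; adjusted p = 0.0737) and 0.69 in stable tumours (0.13 to 1.24; adjusted p = 0.0832). The values were 1.00 in relapse (adjusted p = 0.0731) and in stable tumours 0.96 (adjusted p = 0.0766) without vehicle 2, 6 and 7. In relapse it was called without stable 5 (adjusted p = 0.048), by the Wald test of DESeq2 (0.0413) and with the digit that follows the title code as a factor (0.82, adjusted p = 0.0154), with a range of 0.0154 to 0.173 over the alternatives. The 6 platelet markers summed to 7.72 to 20.9 CPM in relapse, 3.69 to 13.5 CPM in stable and 3.83 to 12.1 CPM in vehicle tumours, with 1 of 3 tested called as higher in relapse (0 without vehicle 2, 6 and 7); their part in Itga2b was not tested.

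Several subunits of this group followed vehicle 2, 6 and 7. Itga5, the fibronectin receptor subunit, was at 177, 138 and 45.6 CPM in them, where the remaining vehicle tumours held 16.2 to 33.2 CPM. Itga1, a collagen receptor subunit, was at 123, 129 and 94.5 CPM against 29.0 to 48.7 CPM, and Itga8, a subunit of smooth muscle and mesenchymal cells, at 205, 295 and 181 CPM against 50.8 to 109.7 CPM. Itga9, which binds tenascin, was at 133, 81.7 and 40.4 CPM against 19.7 to 31.5 CPM, and Itga7, the laminin receptor subunit of muscle, at 39.1, 23.4 and 23.1 CPM against 2.31 to 14.4 CPM. None of these passed the test against vehicle; in stable tumours Itga5 was at -1.34 (adjusted p = 0.0601) and Itga7 at -1.53 (adjusted p = 0.0593). With the 3 tumours left out, 12 of the 13 were positive in relapse and 10 of the 13 in stable tumours, with medians of 0.38 and 0.22 (-0.12 and -0.21 over all 21 tumours), and 0 were called. The remaining subunits were alphas Itga10 and Itga11, which bind collagen, and the betas Itgb3, Itgb5 and Itgb8, partners of alpha-v. Itgb8, whose receptor frees latent TGF-beta, was at 0.09 in relapse and 0.58 in stable tumours (adjusted p 0.851 and 0.0949), with all 7 stable tumours above the vehicle median.

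**Figure D3:**
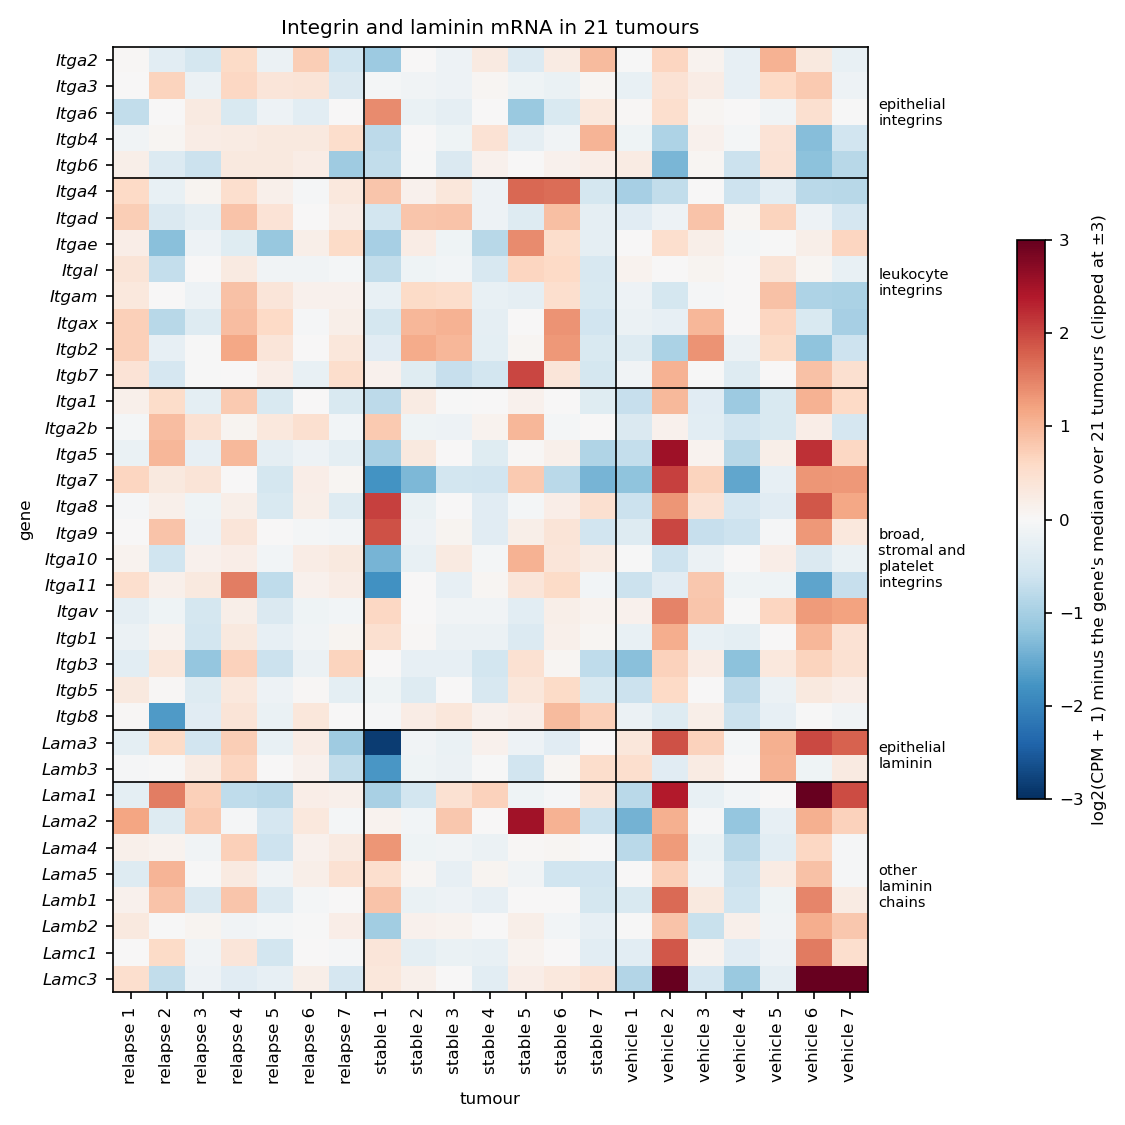
Level of 36 members in each tumour, as log2(CPM + 1) minus the gene's median over the 21 tumours, clipped at 3 in either direction; rows are grouped by integrin and laminin class and columns by relapse, stable and vehicle. Vehicle 2, 6 and 7 are red in Itga1, Itga5, Itga8, Lama1, Lamc1 and Lamc3 and blue in Itgb4 and Itgb6, and stable 1 is deep blue in Lama3.

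Among the epithelial laminin chains, Lama3 was called and Lamb3, the beta chain, was not. Lamb3 lay at 66.9, 113 and 177 CPM in relapse, at 33.1, 103 and 163 CPM in stable and at 88.4, 134 and 231 CPM in vehicle tumours. It was at -0.21 in relapse (-0.76 to 0.35; adjusted p = 0.662) and -0.45 in stable tumours (-1.01 to 0.10; adjusted p = 0.252). Below the vehicle median lay 6 relapse and 6 stable tumours for Lamb3, and the groups overlapped. In vehicle 2, 6 and 7 it did not follow Lama3, as it was at 88.4, 103 and 135 CPM, among or below the 4 remaining. When those 3 tumours were left out, Lamb3 lay at -0.41 in relapse (adjusted p = 0.474) and -0.66 in stable tumours (adjusted p = 0.205). The 4 keratin and Trp63 markers of basal epithelium summed to 721 to 1646 CPM in relapse, 149 to 1318 CPM in stable and 540.1 to 5293 CPM in vehicle tumours. The sum was lowest in stable 1, where Lama3 and Lamb3 were lowest too. Among vehicle tumours it was lowest in vehicle 2 and 6 (540.1 and 814 CPM), which held 602 and 639 CPM of Lama3. Vehicle 3, with the highest sum, held 261 CPM of Lama3. The part of these markers in the laminin levels was not tested.

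Of the 8 other laminin chains, 1 was called as lower in each treated group, Lamc3. They belong to the laminins of basement membranes of epithelium, muscle and vessels. Lama1 was at 209, 417 and 156 CPM in vehicle 2, 6 and 7, where the remaining vehicle tumours held 22.3 to 39.6 CPM. Lamc1 was at 954, 773 and 372 CPM against 205 to 278 CPM, and Lamb1 at 591, 504 and 215 CPM against 119 to 223 CPM. In relapse and stable tumours Lama1 lay between 19.6 and 116 CPM, and none of the 14 reached the lowest of the 3. Lama1 was at -1.39 in relapse (adjusted p = 0.117) and -1.65 in stable tumours (adjusted p = 0.0565), and Lamc1 at -0.66 (adjusted p = 0.172) and -0.79 (adjusted p = 0.0889). With vehicle 2, 6 and 7 left out, all 8 chains had positive values in both groups, with medians of 0.49 in relapse and 0.28 in stable tumours (-0.38 and -0.55 over all 21 tumours), and only Lamc3 in stable tumours was called. Lama2, the alpha chain of muscle and nerve basement membrane, was then at 0.94 and 1.56 (adjusted p 0.329 and 0.102). Skeletal muscle markers, 10 genes, summed to 189 to 7503 CPM in relapse, 219 to 4349 CPM in stable and 214 to 549.6 CPM in vehicle tumours, and 9 of the 10 were called as higher in relapse (4 in stable tumours), with 1 and 0 called without vehicle 2, 6 and 7. The highest Lama2 values were 266 CPM in stable 5 and 104 CPM in relapse 1, the tumours with the highest muscle sum of their group (4349 and 7503 CPM). The next highest Lama2 values of their groups were 79.6 CPM in relapse 3 and 94.6 CPM in stable 6. These tumours had muscle sums of 4126 and 885 CPM. Other tumours went the other way. Relapse 2, with a muscle sum of 4779 CPM, held 34.2 CPM of Lama2, and stable 3, with 317 CPM, held 79.8 CPM. Vehicle 2 and 6 held 95.4 and 95.7 CPM of Lama2 beside muscle sums of 285 and 271 CPM. The part of muscle in Lama2 was not tested.

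**Figure D4:**
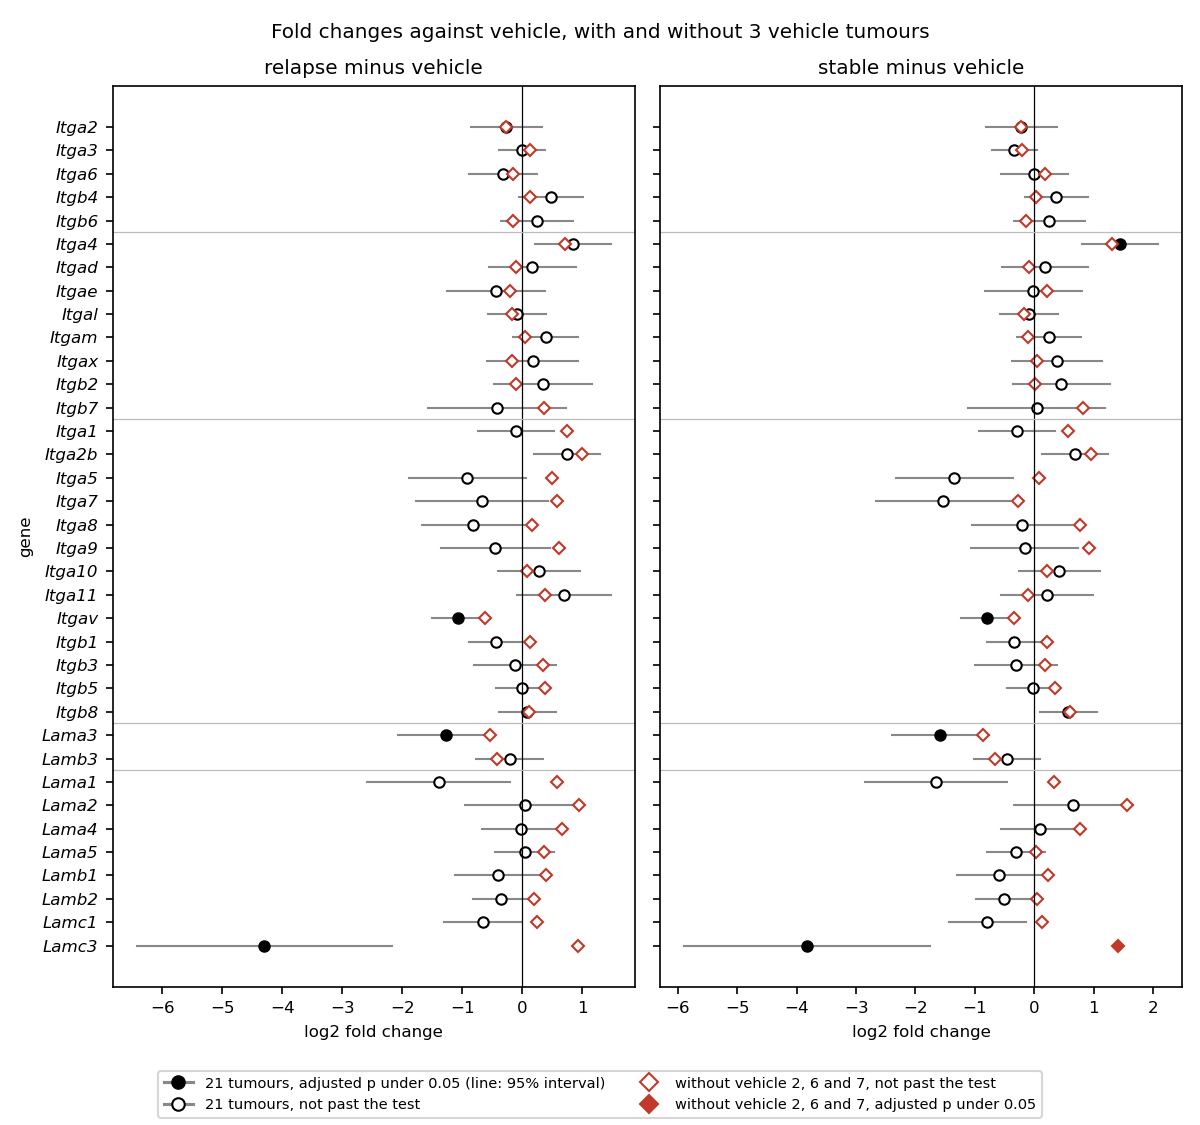
Log2 fold change of 36 members in relapse (left) and stable tumours (right) against vehicle. Circles with 95% intervals are from all 21 tumours, filled where the adjusted p was under 0.05, and red diamonds are without vehicle 2, 6 and 7; the diamonds of most broad integrins and laminins lie to the right of the circles, and Lamc3 changes side.

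Relapse and stable tumours, compared to ask which subunits go with relapse under the drug, gave no call for any member. The edgeR test called 0 of 37 members and 0 of 15792 genes (0%), with 1 member and 751 genes (4.76%) at an unadjusted p under 0.05; the Wald test of DESeq2 called 0 members and 6 genes. Median log2 fold changes were 0.004 over the members and -0.01 over all genes. The lowest p belonged to Itgb8, which was at 126 ± 45.3 CPM in relapse and 176 ± 46.3 CPM in stable tumours (-0.49, interval -0.97 to -0.01; adjusted p = 0.99). Relapse 2 held 40.5 CPM and the other 6 relapse tumours 106 to 174 CPM, against 131 to 259.5 CPM in stable tumours. Next were Itga4 at -0.60 (-1.23 to 0.03), Itga3 at 0.33 (-0.04 to 0.71) and Itga7 at 0.86 (-0.25 to 1.97), each with an adjusted p of 0.99. Itga7 lay at 5.76, 10.2 and 14.3 CPM in relapse and at 1.82, 4.57 and 15.9 CPM in stable tumours, where stable 5 was alone above 5.60 CPM. All 7 relapse tumours exceeded the stable median; Mettl7b overlaps this gene. Among the subunits described in every comparison, values were -0.33 for Itga6, 0.11 for Itgb4, -0.08 for Itgb1, 0.14 for Itgam, -0.11 for Itgb2, 0.32 for Lama3 and 0.25 for Lamb3, with intervals that held 0 in each case. The widest of these was Itgb2, from -0.92 to 0.70. In the 2 pairs of tumours that share a title code, relapse 5 with stable 5 and relapse 6 with stable 7, the difference in log2(CPM + 1) was -0.39 and -0.37 for Itgb8 and 0.48 and 0.33 for Itga3, while for Itga4 it was -1.59 and 0.50 and for Itga7 -1.32 and 1.59.

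Ratios between subunits were examined per length, and these ratios were chosen after the values had been seen, so no test is given. Itgav over Itgb1 was 0.162 to 0.196 in relapse, 0.186 to 0.213 in stable and 0.232 to 0.398 in vehicle tumours. Neither treated group overlapped with vehicle, and vehicle 2, 6 and 7, at 0.250, 0.235 and 0.325, lay inside the range of the other vehicle tumours. Of the other 36 members, 2 had a ratio to Itgb1 that did not overlap between relapse and vehicle (Itga2b and Itgav; 1.5% of 15791 genes) and 1 between stable and vehicle (Itgav; 1% of genes). Ratios that were lower without overlap, as for Itgav, made up 0.19% of genes in relapse and 0.241% in stable tumours, and 1.94% and 4.42% without vehicle 2, 6 and 7, when 4.02% and 5.35% of genes did not overlap in either direction. The members without overlap were then 2 of 36 in relapse (again Itga2b and Itgav) and 3 of 36 in stable tumours, Itgav and Lamc3 among them. For Lama3 over Lamb3 the relapse tumours ranged from 0.394 to 1.05 and the stable tumours from 0.317 to 0.935, against 3.31, 3.01 and 1.96 in vehicle 2, 6 and 7 and 0.627 to 0.945 in the remaining vehicle tumours. Itga6 over Itgb4 was 2.43 to 4.10 in relapse, 18.5 in stable 1 and 2.24 to 3.59 in the other stable tumours, against 10.8, 13.7 and 5.90 in vehicle 2, 6 and 7 and 2.77 to 4.48 in the remaining vehicle tumours.

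**Figure D5:**
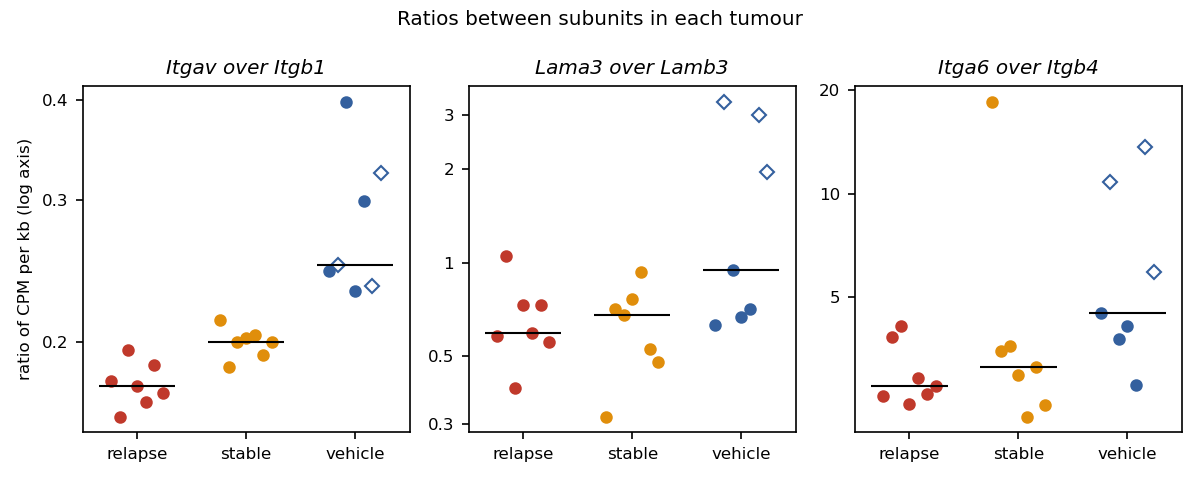
Ratio of CPM per kb (log axis) of Itgav to Itgb1, Lama3 to Lamb3 and Itga6 to Itgb4 in each relapse, stable and vehicle tumour; bars are medians and open diamonds are vehicle 2, 6 and 7. The Itgav ratio separates both treated groups (0.162 to 0.213) from vehicle (0.232 to 0.398), while the other ratios are highest in the diamonds and, for Itga6, in stable 1.

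Over the 21 tumours, the genes whose CPM followed 3 members most closely by Spearman's rho were listed as a description. Such correlations also take in differences between groups, in depth and between vehicle 2, 6 and 7 and the other tumours. For Itgam they were Adam8 (0.94), Mmp12 (0.92), Msr1 (0.89), Clec4d (0.88) and Lilrb4a (0.87), a protease of myeloid cells, the macrophage elastase, a scavenger receptor and a pair of myeloid receptors. For Itga6 they were Edf1 (0.89), Ndufa11 (0.84), Tst (0.83), Uqcc2 (0.83) and Cobll1 (0.82). For Itgb4 they were Wipf2 (0.84), Med1 (0.84), Rhbdf2 (0.80), Faap100 (0.79) and Grb2 (0.79), all 5 on chromosome 11, as is Itgb4 (115974725 to 116008412). Of the 50 genes most like Itgb4, a number chosen after the values were seen, 32 (64%) lay on chromosome 11, which holds 8.36% of the genes tested. For Itga6, on chromosome 2, this was 6 of 50 (12%, against 7.77% of genes), and for Itgam, on chromosome 7, also 6 of 50 (12%, against 7.5%).

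The partners of these receptors were taken from 4 lists, whose shares called are to be read against the 11.2% of all genes in relapse and 15.1% in stable tumours. Of 6 hemidesmosome proteins and laminin receptors other than integrins, 1 was called as lower in each treated group, the dystroglycan gene Dag1. It was at 251 ± 37.9 CPM in relapse and 257 ± 57.9 CPM in stable, against 416 ± 152 CPM in vehicle tumours (-0.73, adjusted p = 0.0196, and -0.69, adjusted p = 0.0219), and at -0.26 and -0.22, not called, without vehicle 2, 6 and 7. Of 11 basement membrane proteins other than laminins, 0 were called in relapse, while in stable tumours agrin (Agrn, -0.40), the collagen IV chains Col4a1 (-1.48) and Col4a2 (-1.57) fell and nephronectin (Npnt, 0.72), the main ligand of integrin alpha-8 beta-1, rose, with adjusted p from 0.0299 to 0.0426. None of them was called without those 3 tumours, where the collagen IV chains were at 0.15 and 0.11.

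Of 23 integrin activators, adaptors and kinases, 1 rose and 2 fell in relapse and 4 fell in stable tumours, shares of 13.0% and 17.4% that are close to those of all genes. Vinculin (Vcl), which ties integrins to actin, fell in both, by 0.84 (adjusted p = 0.0123) and by 0.88 (adjusted p = 0.00914). Itgb1bp1 (-0.65, adjusted p = 0.0474), which holds integrins in a low affinity state, fell in relapse and Itgb1bp2 (1.25, adjusted p = 0.0266), a muscle protein that binds the beta-1 tail, rose there, beside the skeletal muscle values above. The adaptor Bcar1 (-0.60), parvin alpha (Parva, -0.80) and tensin 1 (Tns1, -2.05) fell in stable tumours, with adjusted p from 0.0102 to 0.0395. Of these only Bcar1 was called without vehicle 2, 6 and 7 (-0.42, adjusted p = 0.0489).

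Of 15 other integrin ligands, 14 were tested, and 2 rose and 1 fell in relapse while 1 rose and 2 fell in stable tumours. Thrombospondin 1 (Thbs1) stood at 1320.4 ± 408 CPM in relapse and 1161 ± 446 CPM in stable, against 408 ± 137 CPM in vehicle tumours. It rose by 1.69 ± 0.28 in relapse (adjusted p = 0.00208), where its groups did not overlap, and by 1.51 ± 0.28 in stable tumours (adjusted p = 0.00224). It was called without vehicle 2, 6 and 7 too, at 1.41 (adjusted p = 0.0301) and 1.23 (adjusted p = 0.0343). Fibronectin (Fn1) rose in relapse (1.42, adjusted p = 0.018) and was at 0.92 in stable tumours (adjusted p = 0.0899). Vcam1, a ligand of integrin alpha-4 beta-1, fell in relapse (-1.68, adjusted p = 0.011) and stable tumours (-1.56, adjusted p = 0.0144), and Icam1, a ligand of the beta-2 integrins, fell in stable tumours (-0.76, adjusted p = 0.0255). Without vehicle 2, 6 and 7 Fn1 (1.31, adjusted p = 0.0678), Vcam1 (-0.45 and -0.32) and Icam1 (-0.58) were not called. The median log2 fold changes of the 4 lists, in the order given, were -0.37, -0.49, -0.18 and -0.17 in relapse and -0.44, -0.62, -0.24 and -0.43 in stable tumours, against -0.02 and -0.005 over all genes. When vehicle 2, 6 and 7 were left out they were -0.21, 0.58, 0.02 and 0.008 in relapse and -0.17, 0.15, 0.06 and -0.18 in stable tumours, against 0.02 and 0.05 over all genes. Between relapse and stable tumours 0 genes of these lists were called.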

How the data were processed

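RNA was taken from frozen, ground mammary tumours, and stranded poly(A) libraries were read as single ends, per the labels' protocols. The authors deposited whole-number read counts per gene, not normalized, with a gene width; the submitters' processing notes name STAR 2.5.2a, SAMtools 1.3.1, Picard 2.9.2, edgeR and the build mm10. No source used here gives the counting program or its strand setting. Of 24028 gene entries, 10202 had an extra leading cell, so 25 cells were read from the end of each entry; 14 had no symbol and 1175 held 0 counts in every tumour. RefSeq matched 23964 entries.

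Genes were kept by edgeR's filter on low counts (15792 genes), scaled by the trimmed mean of M values, and tested in edgeR 4.0.16 (R 4.3.3) by quasi-likelihood F tests over all 21 tumours, with 3 contrasts and Benjamini-Hochberg adjustment over all genes tested. CPM used the scaled totals. Alternatives used limma 3.58.1 and DESeq2 1.42.0. The procedure was also run on simulated independent counts with known changes. These held no shared title codes and no tumours set apart, so they cannot show how the calls depend on either. Replicate numbers did not pair tumours across groups, since 3 of 21 same-numbered correlations exceeded 0.1. No 2 tumours of a group agreed within sampling noise (lowest chi-square per degree of freedom 18.7).

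Members and lists were chosen with earlier results of these data known. Values by tumour are given for 7 set members, for called members, and for the members of lowest p to make 4 in each comparison; up to 4 called genes per pathway list are named. The values of 1 member are not reported here; it stays in counts and medians over members.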

Additional observations from a re-analysis of the deposited data

Results flagged for a closer look

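Of 111 sets of 7 tumours examined (37 members in 3 groups), 15 held a tumour far from the others. The measure was its gap to the nearest tumour relative to the whole range in CPM (Dixon's test). The limit used would be passed in about 1 in 20 independent sets of normally distributed values. Values were not taken on a log scale and the sets share tumours, so the 15 cannot be read against that rate.

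Stable 1 accounted for 7 of the 15. It held 1915 CPM of Itga6 (330.4 to 883 CPM in the other stable tumours), 334 CPM of Itga8 (63.0 to 113), 125 CPM of Itga9 (21.6 to 43.0), 562 CPM of Itgav (292 to 407), 437 CPM of Lama4 (153 to 181) and 331 CPM of Lamb1 (125 to 182), and it was low in Lama3 at 21.6 CPM (126 to 176). Its luminal marker sum was the highest of the stable tumours (3978 CPM) and its basal marker sum the lowest (149 CPM); the part of cell content in these values was not tested.

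Stable 5 accounted for 4, with 17.2 CPM of Itgae (2.43 to 8.80 CPM in the other stable tumours), 8.77 CPM of Itgb7 (0.503 to 2.16), 15.9 CPM of Itga7 (1.82 to 5.60) and 266 CPM of Lama2 (28.6 to 94.6). Its sums of T and NK cell, fibroblast and skeletal muscle markers were the highest of the stable tumours (29.8, 8249.8 and 4349 CPM), and their part was not tested. In the titles, stable 1 and stable 5 share a digit after the code that no other tumour carries. The part of this label in their values was not tested.

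Relapse 4 held 152 CPM of Itgam (74.1 to 106 CPM in the other relapse tumours) and 70.3 CPM of Itga11 (13.4 to 34.1). Vehicle 5 held 153 CPM of Itgam (42.1 to 82.5 CPM in the other vehicle tumours), and vehicle 3 held 42.0 CPM of Itga11 (7.28 to 21.7).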

How the results depend on the processing

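Between relapse and vehicle the members called (3) became 1 with the replicate block (Itgav), 1 with limma voom and the title code as a random effect (Itgav; this fit, called the random-effect fit here, changes the test and the dependence together), 0 without vehicle 2, 6 and 7 and 5 by the DESeq2 Wald test, which added Itga2b and Itga4. The genes called (1772) became 987 with the block, 955 with the counts of a title code summed, and 527 without those 3 tumours. Between stable and vehicle the members called (4) became 2 with the digit after the title code as a factor, an alternative chosen after seeing the data (Itga4 and Itgb8), 1 with summed counts (Lamc3), 1 without vehicle 2, 6 and 7 (Lamc3, then higher) and 8 by the Wald test. The genes called (2378) became 964 with only the 2 groups, 1251 with the block, 1000 with the digit, 592 with summed counts and 847 without those 3 tumours. Between relapse and stable tumours the Wald test called 6 genes. The labels do not say that replicate numbers pair the tumours, and 2 of the 21 correlated best with their own number. With upper quartile scaling 953 genes were higher and 673 lower in relapse (856 and 916 in the reported fit), and 1294 and 1032 in stable tumours (1090 and 1288).

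Leaving out 1 tumour at a time gave 2 to 4 members and 1156 to 2671 genes between relapse and vehicle (2671 without stable 1, 1160 without vehicle 2, 1156 without vehicle 6), 4 to 8 members and 1470 to 3272 genes between stable and vehicle (1496 without vehicle 2, 1470 without vehicle 6; 8 members without vehicle 1 or 4, 7 without vehicle 5), and 0 members and 0 to 4 genes between relapse and stable tumours (4 without relapse 4, 1 without stable 5). Itgav and Lamc3 in both treated groups, and Lama3 and Itga4 in stable tumours, kept their calls in all 21. Calls were lost for Lamc3 in relapse with the block (-2.71, adjusted p = 0.22), the digit (-2.79, 0.187) and the random-effect fit (-1.73, 0.407), and in stable tumours with the block (0.237), the digit (0.225), the random-effect fit (0.537) and only the 2 groups (0.0626). For Lama3 they were lost in relapse with the block (0.0735), the digit (0.0908), summed counts (0.0749) and the random-effect fit (0.0797), and in stable tumours with the digit (0.152) and summed counts (0.0672). For stable tumours they were lost for Itgav with only the 2 groups (0.0626), the digit (0.0805) and summed counts (0.0521), and for Itga4 with summed counts (0.0634).

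Without vehicle 2, 6 and 7 the sign turned for 19 of 37 members in relapse and 18 of 37 in stable tumours, 4 and 4 of them to negative. Among members followed through every alternative these were Itgb1 (0.13), Itgb2 (-0.10) and Lamc3 (0.93) in relapse and Itgb1 (0.21), Itgam (-0.10) and Lamc3 (1.41) in stable tumours. Itga6 in stable tumours, near 0 in the reported fit, was at -0.12 with the block, -0.36 with the digit, -0.013 with summed counts and -0.18 with the random-effect fit, and ran from -0.38 to 0.14 over single tumours left out. With the digit Lamb3 was at 0.025 in stable tumours. Stable 1 and stable 5 carry a digit that no other tumour has, so in the digit fit the stable contrasts rest on the other stable tumours. Between relapse and stable tumours the digit gave Itga6 0.019, Itgb4 -0.25, Itgb1 0.023, Itgam -0.14, Lama3 -0.027 and Lamb3 -0.19, and summed counts gave Itgb2 0.10. Over single tumours left out, between relapse and stable tumours Itga6 ran from -0.46 to 0.058, Itgb1 from -0.15 to 0.011 and Itgb2 from -0.29 to 0.078. The cause of these shifts was not tested.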
